A study of Arabidopsis thaliana with 8 samples.

Results

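The 9 genes described here read light or pass the signal on in Arabidopsis thaliana seedlings: the photoreceptor genes PHYA and CRY2, the bHLH (basic helix-loop-helix) genes PIF3 and HFR1, the phytochrome kinase substrates PKS1 and PKS2, and the B-box genes BBX14, BBX15 and BBX16. They were taken by locus from a list chosen with earlier results of these data known. It holds some members of these families and not others, such as PKS3 and BBX24. All 9 passed the filter on low counts, out of 5261 genes that did and 9536 loci with values. These loci lie on chromosome 1 and the start of chromosome 2, so shares of all tested genes refer to that part of the genome. RNA from whole seedlings of 4 genotypes was sequenced, with 2 libraries per genotype. Col0 is the wild type Columbia. The mutant sr45 carries the T-DNA insertion sr45-1 in SR45, sap18sr45 carries it together with an insertion in SAP18, and asap carries both of these and an insertion in ACINUS. The asap line came from a cross of double mutants, and each genotype is a single line, so an effect of the added insertion and another difference between lines cannot be told apart. All seedlings were 11 days old and had grown on MS medium at 22 °C under 16 h of light and 8 h of dark. No source used here gives the hour of harvest or says that replicate libraries were made from separate plants or cultures. The p-values therefore measure only how far these samples scatter, which may be technical.

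SR45, SAP18 and ACINUS proteins form the ASAP complex, which joins the exon junction complex on messenger RNA and takes part in splicing. In light signalling, phytochromes absorb red and far-red light and cryptochromes absorb blue light. Activated phytochromes move to the nucleus, where they bind PIF transcription factors and cause their breakdown, and light also relieves the repression of photomorphogenesis by COP1 and SPA proteins. B-box zinc-finger proteins act downstream of the photoreceptors, some promoting and some opposing the seedling's response to light. Many of these transcripts also follow the day, through light itself and through the circadian clock.

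Total counts per library ran from 1295244 to 4052420, and the shallowest library was sr45 replicate 1. These totals cover only chromosome 1 and the start of chromosome 2, so they are not the full depth of the libraries. The targeted gene SR45 read 24.24 and 21.00 cRPKM (mappability-corrected RPKM, a read count scaled to gene length and library size) in Col0, 6.62 and 4.99 in sr45, 13.59 and 14.38 in sap18sr45, and 6.23 and 3.85 in asap. SR45 was lower in all 3 mutants, and the 2 sap18sr45 libraries lay between Col0 and the other mutants. Its log2 change in sap18sr45 against Col0 was -0.76 in edgeR, or -0.66 without Col0 replicate 1. The fall did not pass without that library, nor in limma on log2 cRPKM with a pseudocount of 0.5 (adjusted p = 0.0561 in limma). In edgeR SR45 was higher in sap18sr45 than in sr45 (log2 1.26, adjusted p = 2.34e-04). It was lower in asap than in sap18sr45 (log2 -1.60, adjusted p = 4.94e-07). Between asap and sr45 the difference was -0.34 (adjusted p = 0.334). Comparisons of sap18sr45 with sr45 or asap thus also differ in SR45 level, whose part in them was not tested. Summed over 5 green tissue markers, the level was 40212.7 to 41516.8 cRPKM in Col0 and 45319.9 to 48877 in the mutants. In the test below, where the shares of all genes are given, 2 of the 5 rose and 2 fell in sr45. In sap18sr45 1 rose and 1 fell, and in asap 1 rose and 3 fell. The summed level was higher mainly through RBCS1A, with means of 17731.7 in Col0, 25069.5 in sr45, 24906.6 in sap18sr45 and 24146.8 in asap. Over 4 root markers it was 2.66 to 3.19 cRPKM in Col0, 3.67 to 4.93 in sr45, 7.98 to 9.63 in sap18sr45 and 40.92 to 47.05 in asap, where all 4 rose (EXPA18 not without Col0 replicate 1, adjusted p = 0.0647, or asap replicate 2, 0.0965). Most of the root sum in asap was PER3, at 43.09 and 30.12 cRPKM. EXPA7, EXPA18 and NRT2.1 were near the floor, with at most 5 counts in a Col0 library. Of all tested genes 25.6% rose in asap. In any library the flower markers summed to at most 2.41 cRPKM and the seed markers to at most 1.52.

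Against Col0, with a Benjamini-Hochberg adjusted p under 0.05 in edgeR's quasi-likelihood test as the threshold, 6 of the 9 genes changed in sr45, 3 higher and 3 lower, where 31.7% of all tested genes did (15.2% higher and 16.5% lower). In sap18sr45, 7 changed, 3 higher and 4 lower, beside 27.1% of all genes (12.9% higher and 14.2% lower). In asap, 8 changed, 2 higher and 6 lower, beside 51.6% of all genes (25.6% higher and 26% lower). The median log2 change of the 9 was -0.12 in sr45, -0.24 in sap18sr45 and -0.71 in asap, while that of all tested genes was -0.01, 0.01 and 0.01. The 9 were chosen with earlier results of these data known, so these counts and medians are not an unbiased comparison with all genes. PHYA, CRY2 and HFR1 fell in all 3 mutants, and BBX15 and BBX16 rose in all 3. PKS1 passed the threshold in asap and not in the other mutants. BBX14 was above Col0 in sr45 and sap18sr45 and was called lower in asap (log2 -0.24). In that last comparison the libraries overlapped, and with quantile normalization in limma-voom the change was -0.07 (adjusted p = 0.407). Because these are whole seedlings, fewer cells that express a gene and less RNA per cell cannot be told apart.

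**Figure D1:**
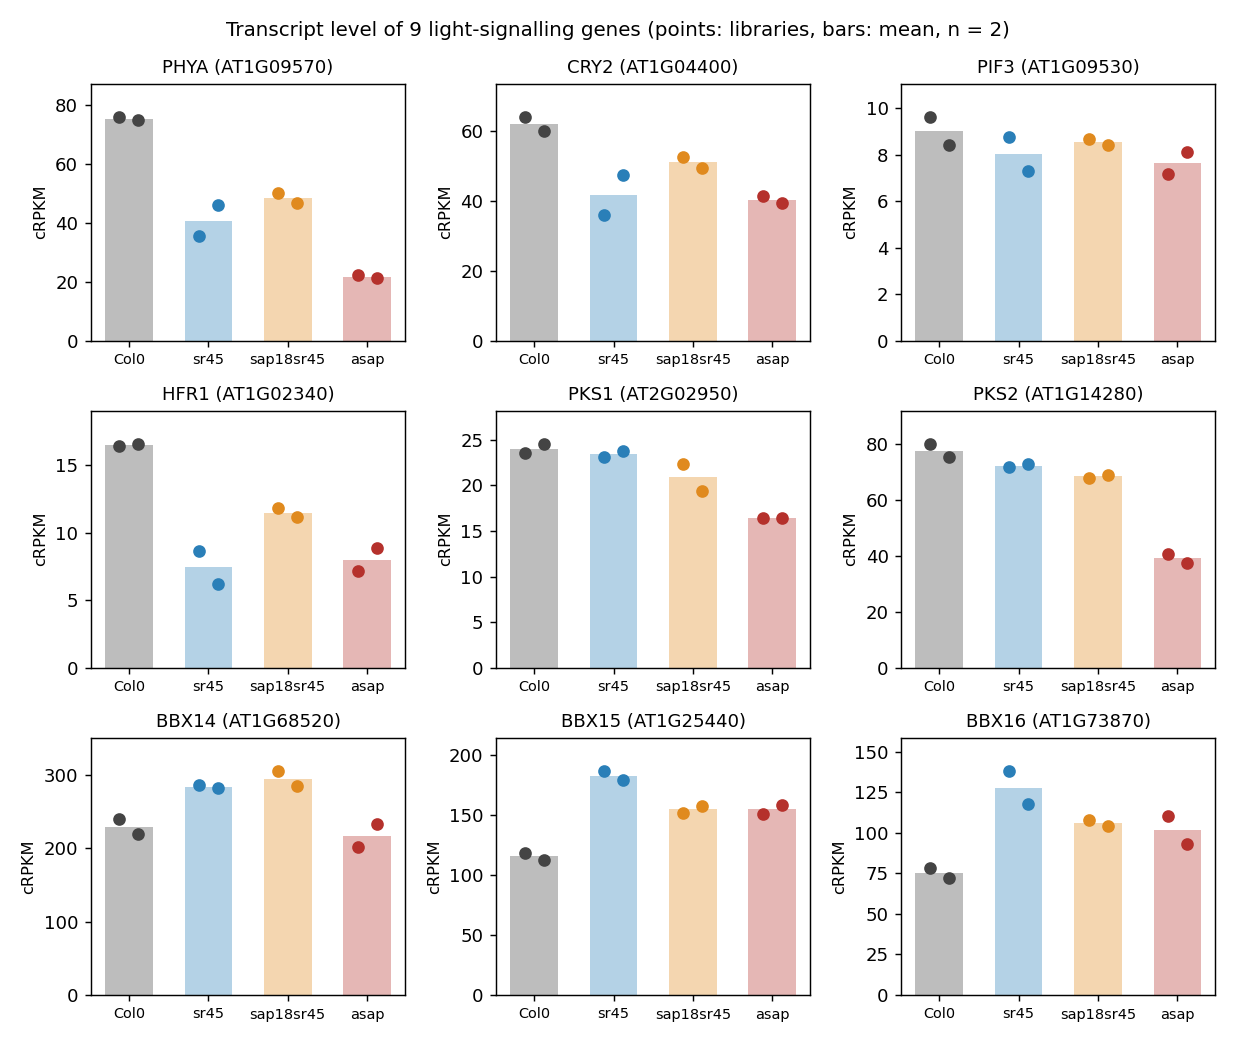
Transcript level of the 9 genes in cRPKM (vertical axes, each from 0) in Col0, sr45, sap18sr45 and asap; points are the 2 libraries of a genotype and bars their mean. PHYA falls from 75.91 and 74.93 in Col0 to 22.37 and 21.12 in asap, while BBX15 and BBX16 stand above Col0 in every mutant library.

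In Col0 the B-box genes BBX14 and BBX15 were the most abundant of the 9 per length of gene, at means of 229.4 and 115.6 cRPKM, above 97.2% and 94.3% of the tested genes. PKS2 (77.8), PHYA (75.4) and BBX16 (74.9) came next, and their libraries overlapped, so their order is not resolved. CRY2 followed at 62.1, PKS1 at 24.0, HFR1 at 16.5 and PIF3 at 9.03 cRPKM. PIF3 lay above 47.3% of the tested genes, which leaves it near the middle of the range, whereas the other members lay in the upper part.

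PHYA (AT1G09570, chromosome 1, 3095160 to 3100819 on the minus strand in TAIR10.1) encodes phytochrome A, the receptor for far-red light and for very weak light, which is broken down once it has been activated. Its level was 75.91 and 74.93 cRPKM in Col0, 35.44 and 45.99 in sr45, 50.04 and 46.74 in sap18sr45, and 22.37 and 21.12 in asap. No mutant library reached the Col0 libraries, and both asap libraries lay below every other library. The log2 change against Col0 was -0.89 ± 0.08 (SE; adjusted p = 5.9e-09) in sr45, -0.70 ± 0.08 (2.22e-07) in sap18sr45 and -1.96 ± 0.09 (1.26e-15) in asap. In asap this was 3.89-fold lower than Col0, and 1.43% of all tested genes had a more negative change. It was also the member with the largest change.

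Between the mutants, PHYA was lower in asap than in sap18sr45 by a log2 change of -1.27 ± 0.09 (adjusted p = 2.45e-11) and than in sr45 by -1.07 ± 0.09 (1.6e-09). The sap18sr45 level did not pass the test against sr45 (0.19 ± 0.08, adjusted p = 0.237). Within sr45 the libraries were apart, and without sr45 replicate 2 that last comparison passed (log2 0.40, adjusted p = 0.00313). The 3 changes against Col0 and both falls into asap passed under every alternative setting tested with a p.

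CRY2 (AT1G04400, chromosome 1, 1185512 to 1188696, minus strand) encodes cryptochrome 2, a blue-light receptor that acts in weak light and in the day-length control of flowering. It read 64.09 and 60.17 cRPKM in Col0, 36.06 and 47.48 in sr45, 52.75 and 49.41 in sap18sr45, and 41.43 and 39.48 in asap. Every mutant library was below both Col0 libraries, but the sr45 libraries enclosed those of asap. CRY2 fell by 0.57 ± 0.09 on the log2 scale in sr45 (adjusted p = 2.73e-05), by 0.34 ± 0.09 in sap18sr45 (0.00441) and by 0.79 ± 0.09 in asap (4.55e-08). From sap18sr45 to asap it fell by 0.45 ± 0.09 (adjusted p = 4.17e-04), a call lost in limma on log2 cRPKM (0.068 and 0.0695 with the 2 pseudocounts). The difference between asap and sr45 was -0.22 (95% interval -0.49 to 0.05, adjusted p = 0.0934), and it passed with no count filter (0.0247).

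The fall of CRY2 in sap18sr45 no longer passed without Col0 replicate 1 (adjusted p = 0.0906), without sap18sr45 replicate 2 (0.0834) or in limma on log2 cRPKM (0.137). Both photoreceptor genes thus had their lowest mean in asap, and in asap the fall of PHYA on the log2 scale (-1.96) was larger than that of CRY2 (-0.79). The smaller differences between sr45 and the other mutants depended on the sr45 library used: without sr45 replicate 1, CRY2 was lower in asap than in sr45 (log2 -0.41, adjusted p = 0.00159), and without sr45 replicate 2 it was higher in sap18sr45 than in sr45 (log2 0.45, adjusted p = 0.00947).

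PIF3 (AT1G09530, chromosome 1, 3075768 to 3079654, plus strand) encodes the phytochrome-interacting bHLH factor that supports growth in the dark and is degraded in light. It lies 15505 bases from PHYA with 4 loci between them. Its level was 9.62 and 8.44 cRPKM in Col0, 8.76 and 7.29 in sr45, 8.69 and 8.43 in sap18sr45, and 7.18 and 8.14 in asap. The libraries of Col0 overlapped those of sr45 and of sap18sr45, while the asap pair lay wholly below Col0. In edgeR PIF3 passed the test in none of the 6 comparisons (1 had an unadjusted p under 0.05, asap against Col0 at 0.0317), nor did it in DESeq2 or limma. Its log2 difference from Col0 was -0.21 in sr45 (95% interval -0.72 to 0.31), -0.14 in sap18sr45 (-0.61 to 0.34) and -0.40 in asap (-0.89 to 0.09), with adjusted p values of 0.434, 0.612 and 0.0595. With 72 to 249 counts per library, a fall in asap as large as that of CRY2 is inside this interval. Without asap replicate 2 the difference in asap passed (log2 -0.52, adjusted p = 0.0307). In asap, PIF3 thus gave a difference that did not pass the threshold, and PHYA a 3.89-fold fall in the same libraries. Their changes were not tested against each other.

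HFR1 (AT1G02340, chromosome 1, 465616 to 467880, minus strand) encodes an atypical bHLH protein that binds PIF proteins and keeps them from DNA, and that limits elongation in shade. Its level was 16.41 and 16.57 cRPKM in Col0, 8.68 and 6.22 in sr45, 11.83 and 11.15 in sap18sr45, and 7.15 and 8.86 in asap. All mutant libraries lay below Col0, and the sap18sr45 pair lay between Col0 and the other mutants. HFR1 fell by 1.20 ± 0.21 on the log2 scale in sr45 (adjusted p = 5.3e-05) and by 1.20 ± 0.20 in asap (9.46e-06), which is 2.30-fold and 2.29-fold. In sap18sr45 the fall was 0.57 ± 0.18 (adjusted p = 0.0189).

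The asap and sr45 levels of HFR1 differed by 0.01 (95% interval -0.63 to 0.64, adjusted p = 0.991), a wide interval, and HFR1 had 45 to 268 counts per library. From sap18sr45 to asap HFR1 fell by 0.62 ± 0.20 (adjusted p = 0.0186), and from sr45 to sap18sr45 the log2 difference was 0.63 ± 0.22 (adjusted p = 0.100). The call in sap18sr45 against Col0 was lost when any of the 4 libraries was left out (adjusted p 0.106 to 0.144) and in DESeq2 (0.0621). Limma on log2 cRPKM lost it too (0.0744). The step into asap was lost in DESeq2 (0.0661), in limma (0.063) and without sap18sr45 replicate 1 (0.141), sap18sr45 replicate 2 (0.0597) or asap replicate 1 (0.0839).

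**Figure D2:**
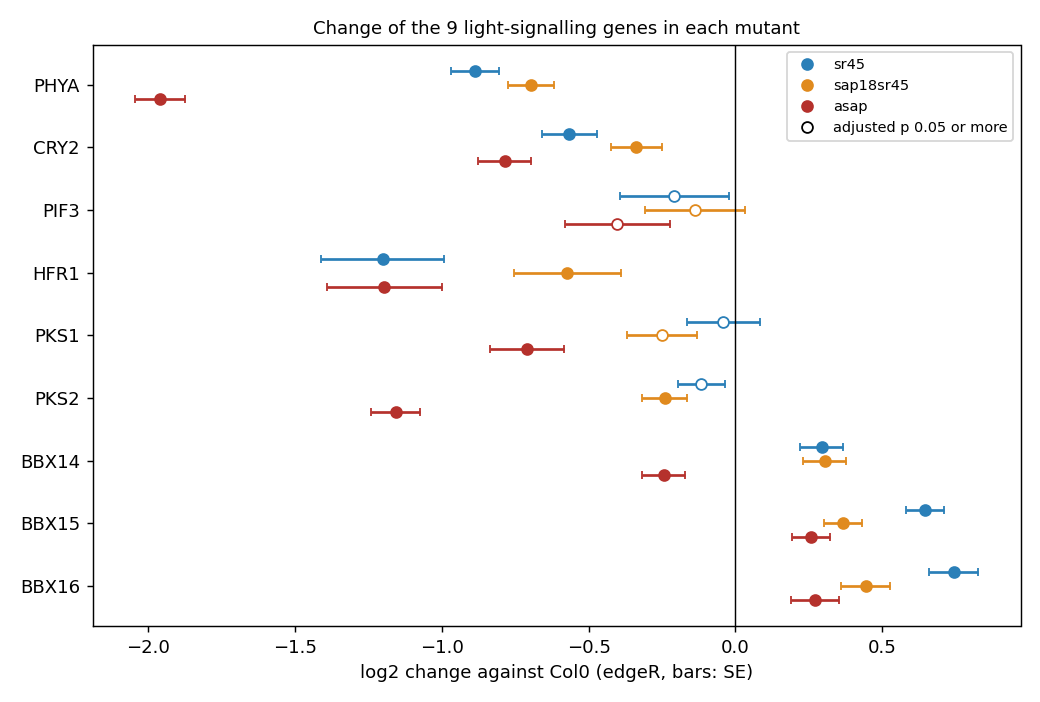
Log2 change of each gene against Col0 in sr45, sap18sr45 and asap (horizontal axis), with bars of 1 SE from edgeR; open points have an adjusted p of 0.05 or more. PHYA in asap lies farthest to the left at -1.96, PIF3 has open points throughout, and BBX14 crosses from 0.30 in sap18sr45 to -0.24 in asap.

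PKS1 and PKS2 encode proteins at the plasma membrane that bind phytochromes and act in phototropism, and PKS2 also in leaf positioning. PKS1 (AT2G02950, chromosome 2, 854077 to 856725, minus strand) read 23.55 and 24.51 cRPKM in Col0, 23.17 and 23.82 in sr45, 22.40 and 19.36 in sap18sr45, and 16.47 and 16.39 in asap. The asap libraries lay below all others, and the sr45 libraries overlapped those of Col0. PKS1 fell by 0.71 ± 0.13 on the log2 scale in asap (adjusted p = 2.76e-05). Its difference was -0.04 in sr45 (95% interval -0.39 to 0.31, adjusted p = 0.849) and -0.25 in sap18sr45 (-0.58 to 0.08, adjusted p = 0.125), which passed when only those 4 libraries were fitted (0.0387). The PKS1 locus overlaps a long noncoding RNA gene on the plus strand by 189 bases, and no source used here says whether reads were counted by strand.

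PKS2 (AT1G14280, chromosome 1, 4877506 to 4879307, plus strand) read 80.06 and 75.48 cRPKM in Col0, 71.98 and 72.86 in sr45, 68.02 and 69.08 in sap18sr45, and 40.90 and 37.47 in asap. The asap pair stood clear of the other 6 libraries, which lay within 68.02 to 80.06 cRPKM. PKS2 fell by 1.16 ± 0.08 in asap on the log2 scale, a 2.23-fold fall (adjusted p = 2.37e-12). In sap18sr45 the fall was 0.24 ± 0.08 (adjusted p = 0.019), and in sr45 the difference was -0.12 (95% interval -0.34 to 0.10, adjusted p = 0.294). The small fall in sap18sr45 was lost when any of the 4 libraries was left out (adjusted p 0.0758 to 0.201), with upper-quartile scaling (0.0575) and in limma on log2 cRPKM (0.148).

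Both PKS genes fell in asap relative to the other mutants as well. PKS2 was lower than in sap18sr45 by 0.92 ± 0.08 (adjusted p = 1.08e-09) and than in sr45 by 1.04 ± 0.09 (3.67e-10), and PKS1 by 0.46 ± 0.13 (0.00619) and 0.67 ± 0.13 (3.3e-04). Neither gene passed the test between sap18sr45 and sr45. The third PKS gene on this part of the genome, PKS3, read 15.58 and 15.58 cRPKM in Col0 and 9.47 and 14.16 in asap. It fell by 0.55 ± 0.19 in asap (adjusted p = 0.0163, up to 0.177 under the alternatives) and by 0.78 ± 0.19 in sap18sr45 (0.00218, but 0.0743 without sap18sr45 replicate 1), and in sr45 its difference was -0.24 (0.376). The fall of PKS1 from sap18sr45 to asap lost its call without sap18sr45 replicate 1 (adjusted p = 0.151) and in limma on log2 cRPKM (0.0534). The study's fold rule was applied anew here to the loci with values only, and the study's own list of genes was not used. PHYA and PKS2 were the 2 members that passed it in asap against Col0. Under it each asap library must differ 2-fold or more from each Col0 library in cRPKM after quantile normalization. Before that step the PKS2 libraries printed above do not all differ by so much.

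BBX14, BBX15 and BBX16 belong to the B-box proteins that carry a B-box and a CCT domain, the DNA-binding domain named for CONSTANS and its relatives, and the deposited table lists them under the older CONSTANS-like symbols COL6, COL16 and COL7. All 3 lie on chromosome 1: BBX14 (AT1G68520) at 25708175 to 25710989 on the minus strand, BBX15 (AT1G25440) at 8933716 to 8935544 on the minus strand, and BBX16 (AT1G73870) at 27778984 to 27780809 on the plus strand. The promoters of the 9 genes, taken as 250 bases before to 50 after the annotated start in RefSeq's TAIR10.1, were searched on both strands for the G-box CACGTG and the PBE-box CATGTG, which PIF and other bHLH factors can bind, and for the evening element AAAATATCT of clock-controlled genes. None of the 9 held any of them, against 7.678%, 12.91% and 2.817% of 27443 promoters, and no match says only that these letters are not in this window. The I-box GATAAG, a motif of light-regulated promoters that was added after those counts were seen, was in 3 of the 9 (PIF3, BBX14 and BBX15) and in 14.65% of all promoters. Around it BBX14 and BBX15 share a stretch, shown here because these are related genes with different patterns; each window is 30 bases, 5′ to 3′ on the gene's strand, and capitals mark the positions at which both are identical. The I-box is centred at -71 from the annotated start in BBX14 and at 6 after it in BBX15, so the BBX14 window lies before the start and most of the BBX15 window lies inside the annotated transcript.
BBX14 (chr1:25711046-25711075): AATCAgAAtcgAGATAAGatCTCtTCATGG
BBX15 (chr1:8935524-8935553): AATCAcAAatcAGATAAGgcCTCgTCATGG
The windows match at 23 of 30 positions, which include those of the I-box, identical by choice because both windows were placed on it. Of the 27443 promoters, 2 held a window this close to that of BBX14, and they were those of BBX14 itself and BBX15. The best match in the BBX16 promoter had 16 of 30 positions.

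BBX14 read 239.57 and 219.22 cRPKM in Col0, 285.75 and 282.10 in sr45, 304.76 and 284.54 in sap18sr45, and 201.43 and 232.56 in asap. It was above Col0 in every sr45 and sap18sr45 library, while the asap and Col0 libraries overlapped. BBX14 rose by a log2 change of 0.29 ± 0.07 in sr45 (adjusted p = 0.00269) and 0.30 ± 0.07 in sap18sr45 (0.00209). In asap it was lower by a log2 change of -0.24 ± 0.07 (adjusted p = 0.00666), and this call was lost with upper-quartile scaling (0.0994), quantile normalization (0.407), limma on log2 cRPKM (0.415), and without Col0 replicate 1 (0.0935) or asap replicate 1 (0.156). The rises were lost without Col0 replicate 2 (adjusted p = 0.0844 in sr45 and 0.0848 in sap18sr45), and in sap18sr45 also without sap18sr45 replicate 1 (0.0882).

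From sap18sr45 to asap, and from sr45 to asap, BBX14 fell by 0.55 ± 0.07 (adjusted p = 1.05e-06) and by 0.54 ± 0.07 (2.15e-06), and both falls passed under every alternative with a p. The step between sr45 and sap18sr45 was 0.01 (95% interval -0.19 to 0.21). BBX14 overlaps LBD42, on the opposite strand, by 329 bases, and LBD42 had at most 1 count in any library.

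BBX15 read 118.42 and 112.68 cRPKM in Col0, 186.43 and 179.42 in sr45, 152.18 and 158.02 in sap18sr45, and 151.14 and 158.75 in asap. Every mutant library was above both Col0 libraries, and the sr45 pair was above the other 2 mutants, which overlapped. BBX15 rose by a log2 change of 0.65 ± 0.06 in sr45 (adjusted p = 6.44e-09), 0.37 ± 0.06 in sap18sr45 (5.74e-05) and 0.26 ± 0.06 in asap (0.00132). The rise in asap was lost without Col0 replicate 2 (adjusted p = 0.0527).

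BBX16 read 78.08 and 71.76 cRPKM in Col0, 137.70 and 117.49 in sr45, 107.82 and 104.32 in sap18sr45, and 110.56 and 93.07 in asap. As for BBX15, the sr45 libraries were highest and the Col0 libraries lowest. BBX16 rose by a log2 change of 0.74 ± 0.08 in sr45 (adjusted p = 8.06e-08), 0.44 ± 0.08 in sap18sr45 (1.43e-04) and 0.27 ± 0.08 in asap (0.00809). The rise in asap was lost without Col0 replicate 2 (adjusted p = 0.131) and without asap replicate 1 (0.139).

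Both BBX15 and BBX16 were lower in asap than in sr45, by 0.39 ± 0.06 (adjusted p = 3.36e-05) and 0.47 ± 0.08 (9.67e-05). With quantile normalization the BBX15 difference was -0.16 and lost its call (adjusted p = 0.0632). They were the only members past the threshold between sap18sr45 and sr45, where 5.61% of all genes were (3.1% lower): BBX15 fell by 0.28 ± 0.06 (adjusted p = 0.00611) and BBX16 by 0.30 ± 0.08 (0.0291). Those last calls were lost without either sap18sr45 replicate (adjusted p 0.069 and 0.202 for BBX15, 0.18 and 0.264 for BBX16), and that of BBX16 also without sr45 replicate 1 (0.328). Limma on log2 cRPKM and quantile normalization lost both (0.0781 and 0.0916 for BBX15, 0.218 and 0.131 for BBX16). From sap18sr45 to asap neither gene passed, at -0.11 (95% interval -0.29 to 0.07) and -0.17 (-0.40 to 0.06). BBX16 did pass there without asap replicate 1 (log2 -0.29, adjusted p = 0.00457) and with no count filter (0.0487).

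**Figure D3:**
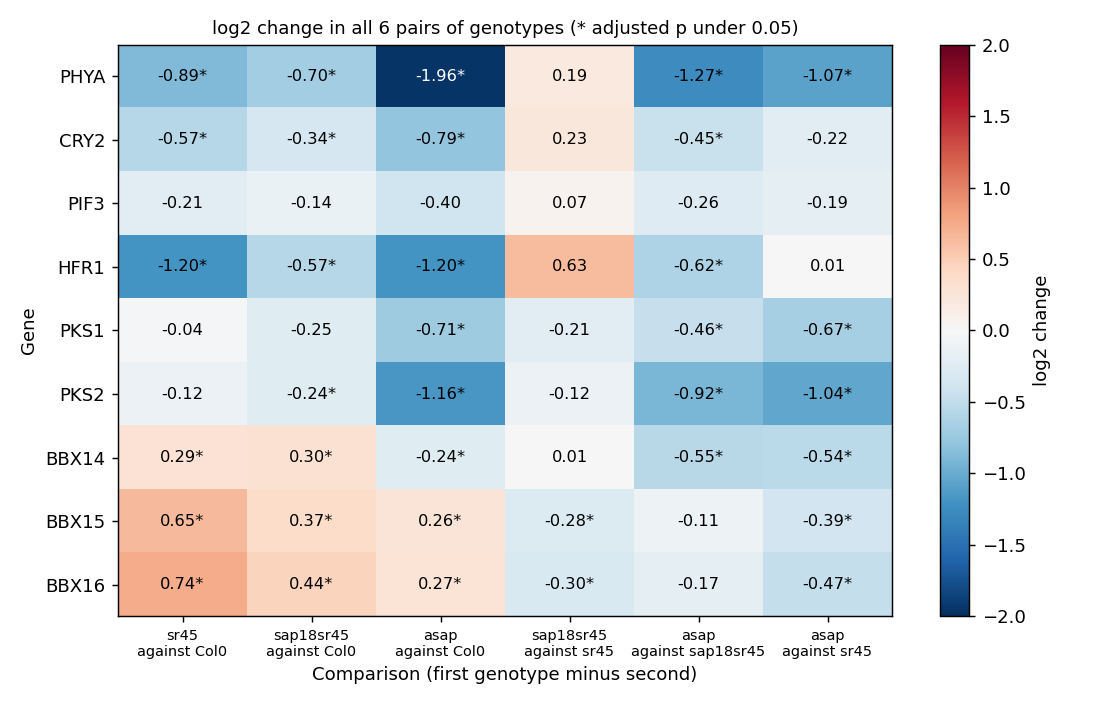
Log2 change of the 9 genes (rows) in all 6 pairs of genotypes (columns, first genotype minus second), printed in each cell and coloured from -2 to 2; an asterisk marks an adjusted p under 0.05. The 2 columns on the right, asap against sap18sr45 and asap against sr45, each hold 6 marked cells, all below 0.

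Over the 6 pairs of genotypes, 6 members passed between asap and sap18sr45, all lower in asap, where 32.1% of all genes passed (16.7% lower), and 6 between asap and sr45, again all lower, where 27.2% did (14.5% lower). PHYA, PKS1, PKS2 and BBX14 passed in both comparisons. CRY2 and HFR1 passed in the first, and BBX15 and BBX16 in the second, but whether the comparisons differ for these 4 genes was not tested, and some of these calls turned with the setting, as given for each gene. These comparisons share the asap libraries, and the median log2 change of the 9 was -0.46 and -0.47.

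Genes whose pattern was closest to a member were sought among 2648 tested genes with a symbol, by the root mean square (RMS) difference in centred log2 CPM over the 8 libraries. For BBX15 these were SIGA, a plastid sigma factor gene, and TPR4, at 0.0607 and 0.0637, and for BBX16 PHYLLO, a gene of phylloquinone synthesis, and SIGA, at 0.0904 and 0.0958. BBX15 and BBX16 were the nearest members of each other at 0.104. PKS1 lay nearest to GGAT1 and HPR, both of photorespiration, at 0.0687 and 0.0690, and PKS2 to GAI, a DELLA repressor of gibberellin responses, and PERK15, at 0.0851 and 0.0970. For PHYA the nearest were RABG3B and PATL1 at 0.148 and 0.164, for CRY2 ATDABB1 and MPK1 at 0.0927 and 0.101, for HFR1 UGT71C4 and ARR15 at 0.167 and 0.174, and for BBX14 WAKL9 and ndhO at 0.0852 and 0.0865. The distances describe the same 8 libraries and carry no test.

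Of 6 other B-box genes tested, 5 fell in sr45, 4 in sap18sr45 and 5 in asap, where 16.5%, 14.2% and 26% of all tested genes fell. None of the 6 rose against Col0, where 15.2%, 12.9% and 25.6% of all genes rose. BBX14 was also called lower in asap, a call lost with upper-quartile scaling, quantile normalization and limma on log2 cRPKM. The members were not tested against the other B-box genes as sets. BBX24, which opposes photomorphogenesis, read 326.94 and 310.31 cRPKM in Col0, 272.78 and 266.93 in sr45, 271.44 and 270.91 in sap18sr45, and 248.35 and 238.40 in asap, and fell by 0.55 ± 0.06 on the log2 scale in asap (adjusted p = 2.7e-08). BBX21 and BBX22, which promote photomorphogenesis, fell in asap by 0.66 ± 0.12 (6.04e-05) and 1.22 ± 0.18 (1.56e-06), and BBX27 by 0.86 ± 0.09 (2.83e-09). These 4 genes fell in sr45 and sap18sr45 too, by 0.25 to 1.13, where the smallest, BBX24 in sr45, did not pass when Col0 replicate 1 was left out (adjusted p = 0.0589). BBX17, which shares the single B-box and CCT domain with the 3 members, read 15.03 and 16.99 cRPKM in Col0, 10.63 and 10.93 in sr45, 15.47 and 15.86 in sap18sr45, and 7.64 and 9.21 in asap. It fell by 1.08 ± 0.20 in asap (adjusted p = 5.45e-05) and by 0.58 ± 0.20 in sr45 (0.0304, up to 0.221 under the alternatives), while BBX15 and BBX16 rose there. BBX13, at 1.36 to 4.13 cRPKM, did not pass the threshold against Col0, and BBX26 did not pass the count filter.

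**Figure D4:**
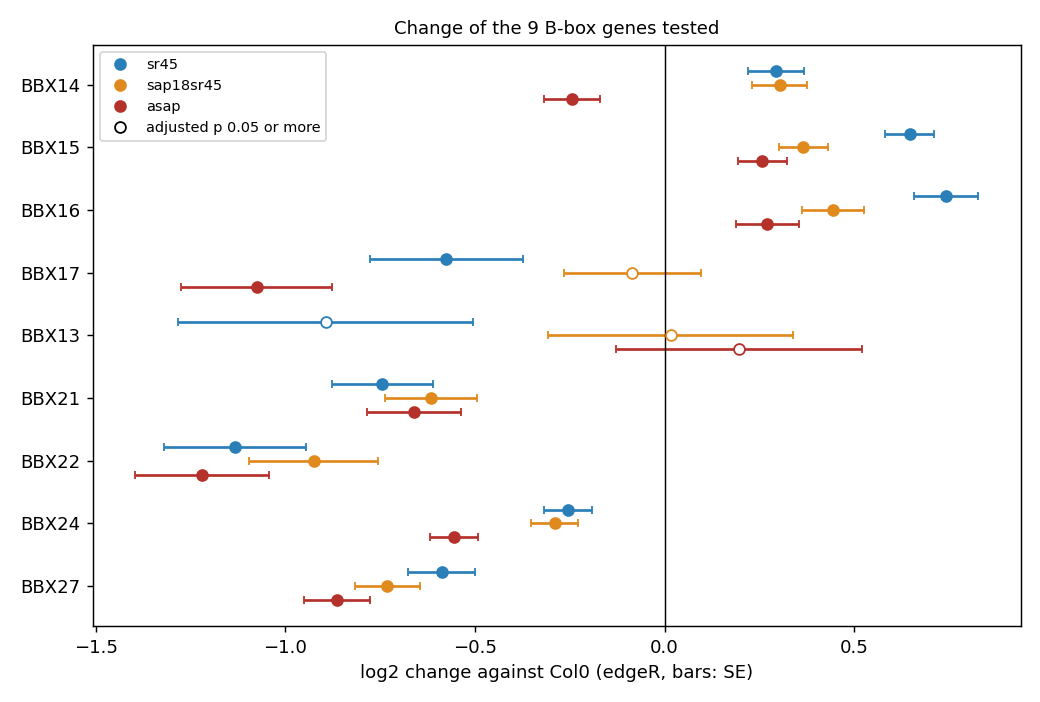
Log2 change against Col0 (horizontal axis, bars of 1 SE from edgeR) of the 9 B-box genes tested; open points have an adjusted p of 0.05 or more. BBX15 and BBX16 lie to the right of 0 in all 3 mutants, and BBX21, BBX22, BBX24 and BBX27 to the left.

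The list of other light-signalling genes held 23 loci, of which 18 were tested, and these include the 6 other B-box genes above. The B-box genes make up 5 of the falls in sr45, 4 in sap18sr45 and 5 in asap. Of the 18, 1 rose and 6 fell in sr45, 1 rose and 5 fell in sap18sr45, and 3 rose and 8 fell in asap. Among all tested genes 15.2%, 12.9% and 25.6% rose and 16.5%, 14.2% and 26% fell. In either direction 31.7%, 27.1% and 51.6% of all tested genes changed, and the list's shares were near those. Its shares of falls lay above those of all genes and its shares of rises below them. The 18 had median log2 changes of -0.27, -0.11 and -0.33. SPA4, which works with COP1 to repress photomorphogenesis, rose in every mutant: by a log2 change of 1.03 ± 0.19 in sr45 (adjusted p = 1.32e-04), 0.59 ± 0.18 in sap18sr45 (0.0172) and 0.70 ± 0.18 in asap (0.00251), the last with libraries at 9.13 and 15.01 cRPKM beside 7.03 and 6.29 in Col0. Its calls in sap18sr45 and asap reached adjusted p values of 0.343 and 0.214 under the alternatives. KDR, whose HLH protein binds HFR1, rose in asap by 0.79 ± 0.18 (6.56e-04), where HFR1 itself fell. CSN7, a subunit of the COP9 signalosome, rose in asap by 0.39 ± 0.13 (0.0174). FYPP1, a phosphatase that acts on phytochromes, fell in asap by 0.58 ± 0.12 (2.35e-04), and FRS8, a relative of the phyA-signalling factor FAR1, by 0.56 ± 0.21 (0.025). The calls of CSN7 and FRS8 were lost under some alternatives (adjusted p up to 0.202 and 0.283). The blue-light receptor gene FKF1 was listed at 0 in all 8 libraries.

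Genes that follow the time of day differed between the genotypes as well. LHY, a clock gene that peaks around dawn, read 52.33 and 51.73 cRPKM in Col0, 115.52 and 132.28 in sr45, 101.70 and 96.88 in sap18sr45, and 111.68 and 110.82 in asap. It rose by a log2 change of 1.24 ± 0.07 (adjusted p = 5.85e-14), 0.88 ± 0.07 (7.88e-11) and 0.93 ± 0.07 (5.31e-12). RVE3 was low in Col0, at 1.45 and 1.21 cRPKM (16 and 9 counts). It read 10.83 and 9.02 in sr45, 5.06 and 4.30 in sap18sr45, and 5.72 and 10.30 in asap. RVE3 rose by 2.84 ± 0.39 (1.71e-06), 1.74 ± 0.40 (0.00152) and 2.42 ± 0.39 (7.53e-06). RVE7, named after its values were seen, read 26.58 and 29.04 cRPKM in Col0, 14.49 and 9.10 in sr45, 7.02 and 9.56 in sap18sr45, and 21.74 and 24.07 in asap. It fell by 1.31 ± 0.23 in sr45 (4.54e-05) and by 1.83 ± 0.21 in sap18sr45 (1.69e-07), and in asap its difference was -0.44 (0.0624). In asap GI rose by 0.73 ± 0.20 (0.00272, but 0.0517 without asap replicate 2) and CDF5 fell by 1.04 ± 0.12 (3.54e-08). The part of the time of day, and that of the root and green tissue markers above, in the changes of the 9 genes was not tested.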

How the data were processed

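Whole-seedling RNA was sequenced by the authors as stranded, paired-end mRNA libraries and mapped with vast-tools to its Arabidopsis library on TAIR10. The authors deposited raw read counts per gene and cRPKM, an RPKM corrected for mappability, in 1 table. Of its 9999 lines, on chromosome 1 and the start of chromosome 2, 1 names no locus (at most 0.00281% of counts, left out) and 462 carry no values. No per-sample column was left unused.

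Counts were tested in R 4.3.3 with edgeR 4.0.16: filterByExpr (5261 genes), TMM scaling, and 1 robust quasi-likelihood fit of all 8 libraries (4 residual degrees of freedom), with 6 two-sided contrasts. P-values were adjusted by Benjamini-Hochberg over all tested genes, threshold 0.05. Each SE was obtained by dividing the absolute log2 change by the root of the F statistic, and 95% intervals use 4 degrees of freedom, fewer than the moderated test. The common coefficient of variation was 8.20%. TMM factors in asap were above 1, so its log2 changes against Col0 lie below those of cRPKM.

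The members and lists were chosen with earlier results of these data known. Named were all 9 members, genes of the other lists past the threshold in asap against Col0 or of the B-box and PKS families, and the 2 genes nearest to each member called against Col0 (RVE7 was added after its values were seen). Alternatives used DESeq2 1.42.0, limma 3.58.1 with pseudocounts of 1 and 0.5 on cRPKM, other scalings and no count filter. They also used only the libraries compared, a replicate block, each library left out, and the study's fold rule. That rule was applied here to the loci with values only (at least 2-fold in every pair in quantile-normalized cRPKM, 50 counts, cRPKM over 5). Sequences came from RefSeq TAIR10.1, in which 281 of 289 introns (97.23%) with TAIR10 coordinates listed by the study began with GT and ended with AG.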

Additional observations from a re-analysis of the deposited data

How the results depend on the processing

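Of 54 values (9 genes in 6 comparisons), 35 passed the threshold and 21 of these passed under every alternative with a test. No called change turned direction. The values that turned did not pass the threshold. PKS1 in sr45 against Col0 was 0.030 with upper-quartile scaling, 0.028 with quantile normalization and 0.030 by the fold rule. In sap18sr45 against sr45, BBX14 was -0.0169 with upper-quartile scaling and ran from -0.0388 to 0.0572 with a library left out, and PIF3 from -0.0859 to 0.183. BBX15 in asap against sap18sr45 was 0.0202 with quantile normalization. HFR1 in asap against sr45 was -0.0196 without the filter, -0.00706 with only the libraries compared, -0.0077 in DESeq2, -0.0792 with quantile normalization and -0.10 by the fold rule, and ran from -0.29 to 0.198 with a library left out. The cause was not tested.

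In the order sr45, sap18sr45 and asap against Col0, sap18sr45 against sr45, asap against sap18sr45 and asap against sr45, the fold rule gave 0, 0, 2, 0, 1 and 0 of the 9 genes, and 138, 105, 442, 9, 161 and 114 of all genes, beside 1669, 1425, 2713, 295, 1689 and 1433 in the test. The rule sets a minimum fold, which the test does not. In limma on cRPKM, with either pseudocount, 4 of the 9 passed in sap18sr45 against Col0, 0 in sap18sr45 against sr45 (173 and 171 of all genes) and 3 in asap against sap18sr45, and with quantile normalization 0 passed in sap18sr45 against sr45. With 1 library left out, the 9 gave 5 to 6, 4 each time, 6 to 9, 0 to 4, 4 to 6 and 6 to 7 calls, and all genes 1023 to 1314, 758 to 854, 1952 to 2807, 112 to 259, 988 to 1905 and 1001 to 1632; the lone library is then assumed to vary like the other groups. With only the libraries compared, 2168 genes passed in sap18sr45 against Col0. Limma on cRPKM with a pseudocount of 1 raised the share of calls that are higher in asap against Col0 from 49.6% to 63.4%, in sap18sr45 against Col0 from 47.6% to 59.0%, in sap18sr45 against sr45 from 44.7% to 54.9%, in asap against sap18sr45 from 48.1% to 65.1% and in asap against sr45 from 46.7% to 71.0%. Relative to TMM it moved the median of all genes in asap against Col0 to 0.135, and upper-quartile scaling to 0.103. Replicate numbers did not pair the libraries (correlations of deviations -0.036 to 0.043); with the replicate number as a block, 6, 7, 8, 2, 6 and 6 of the 9 passed and no call among them changed.

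PIF3 and HFR1 had the fewest counts, and with 2 libraries per genotype small changes such as that of BBX14 in asap depend on the scaling.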
